A study of Mus musculus with 8 samples.

Results

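The islet mesenchymal cells of this data set were 94 cells out of 10876 kept barcodes, or 0.864%. A barcode was kept when it held 200 to 5500 genes in replicate 1, or 200 to 6500 in replicate 2, and at most 10% mitochondrial UMIs (unique molecular identifiers, each of which counts 1 captured RNA molecule). A kept barcode was then called mesenchymal when it had at least 1000 UMIs, less than 5% of its UMIs from the hormone genes Ins1, Ins2, Gcg and Sst, a UMI of at least 4 of the 7 genes Col1a1, Col1a2, Col3a1, Col6a1, Sparc, Pdgfrb and Bgn, and no UMI of the endothelial gene Cdh5 or the myeloid gene Tyrobp. The members were thus chosen by measured values, and the values of these genes are given as a description and were not tested.

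Mesenchymal cells are the connective tissue cells of the islet. They include pericytes, which wrap the capillaries and contract around them, and fibroblast or stellate cells, which make collagens and other matrix. Connective tissue cells in general carry receptors for IL-1β and IFN-γ. IFN-γ acts through JAK kinases, and IL-1β acts through NF-κB.

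Islets were from male C57BL/6 mice (C57BL6/J in the methods) of 12 to 16 weeks, with 10 mice pooled for each of 2 replicates. Whole islets were left untreated, given cytokines (IL-1β at 10 U/mL and IFN-γ at 150 U/mL), given both cytokines plus 2 mM NMMA, an inhibitor of nitric oxide synthase, or given NMMA alone, for 18 h in every case. They were then dispersed with trypsin and loaded on 10x Genomics 3′ single-cell libraries, 1 per condition and replicate, for 8 in all. Library totals were between 26549922 and 50731370 UMIs, and 14 kept barcodes occurred in more than 1 library, none of them a mesenchymal cell.

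The mesenchymal cells were few and unevenly spread. Untreated islets gave 16 cells in replicate 1 and 20 in replicate 2, and NMMA gave 12 and 25. Cytokines gave 1 and 8, and cytokines with NMMA gave 7 and 5. As a share of kept barcodes, untreated islets had 0.745% (95% exact binomial interval 0.426 to 1.21) and 1.11% (0.681 to 1.71), NMMA 1.15% (0.595 to 1.997) and 1.76% (1.14 to 2.59), cytokines 0.0756% (0.00191 to 0.420) and 0.790% (0.342 to 1.55), and cytokines with NMMA 0.747% (0.301 to 1.53) and 0.419% (0.136 to 0.975). The intervals cover counting error only. Because the rule needs UMIs of matrix genes, fewer cells and less matrix RNA per cell cannot be told apart in these shares. The cells with cytokines were also deeper, with a median of 20945 UMIs against 12764 without cytokines.

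**Figure D1:**
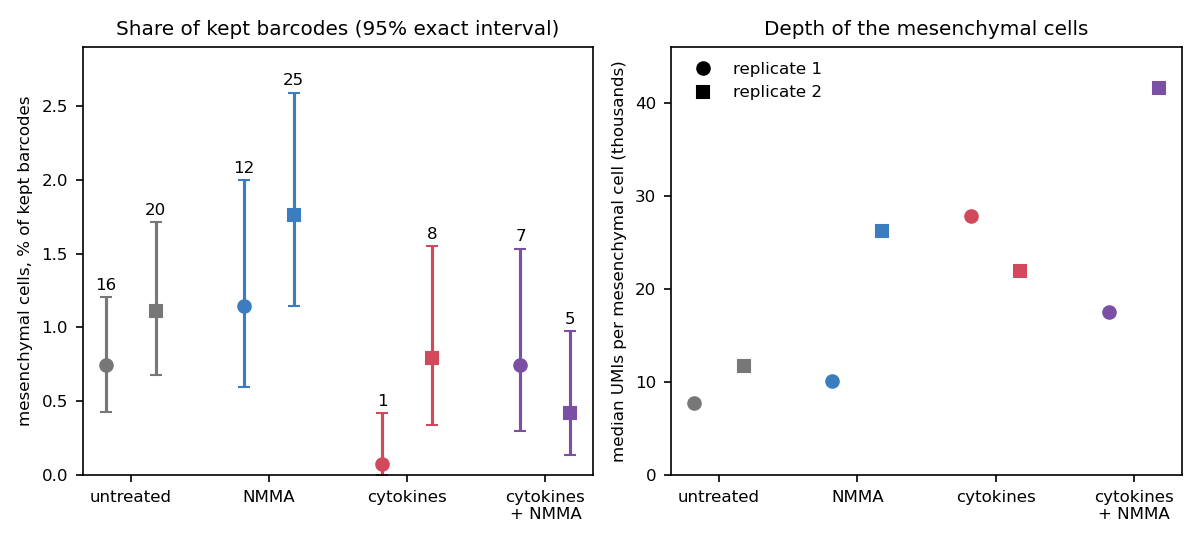
Left, mesenchymal cells as a percentage of kept barcodes (y axis) in each of 8 libraries, with 95% exact binomial intervals and the number of cells above each interval. Right, median UMIs per mesenchymal cell (units as on the axis). The cytokine library of replicate 1 held 1 cell, and the highest median depth was 41570 UMIs, in cytokines with NMMA of replicate 2.

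The library of cytokines in replicate 1 held a single mesenchymal cell, so it was left out of every fit. Its values are still given, scaled by its own total. The cytokine group in the fits was therefore 1 library of 8 cells, and the fits assume that it varied like the other groups. All levels below are normalised CPM (UMIs of a gene, scaled to the same total in each library by the TMM method) of the summed mesenchymal cells of a library.

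The collagen and matrix genes of the rule were clearly detected. Sparc, a matrix glycoprotein, had a UMI in all 94 cells, Bgn (biglycan) in 90, Col3a1 in 80, Pdgfrb, the PDGF receptor of pericytes, in 77 and Col6a1 in 76. Col1a2 was seen in 58 cells and Col1a1 in 51, against 1.10% and 0.529% of the other kept barcodes. Col1a1 stood between 647 and 2406 CPM in the 7 libraries of the fits, and at 14.9 CPM or less in the other kept barcodes. Sparc was not particular to these cells, since endothelial sums held 943 to 2794 CPM, against 1753 to 3290 CPM in the mesenchymal sums.

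Cells at the edge of the rule differed in the genes they carried. Of the members, 23 had exactly 4 of the 7 genes, and another 40 barcodes had exactly 3 and were left out. Among those with 4, Sparc was seen in 100% and Pdgfrb in 87.0%, but Col1a1 in 8.70%. Among those with 3, the values were 97.5%, 70.0% and 17.5%. A further 71 barcodes met the rule except for a UMI of Cdh5 (70 of them) or Tyrobp (2 of them), and 69 of these 71 had a UMI of Pdgfrb. Another 8 were left out by their hormone genes alone. No doublet caller was run, and the limits on genes, hormones, Cdh5 and Tyrobp were the only treatment of doublets.

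The members fell along a range from Rgs5-positive cells to cells with type I collagen. Rgs5 is a regulator of G protein signalling and a usual pericyte marker. It had a UMI without Col1a1 or Col1a2 in 27 cells, type I collagen was seen without Rgs5 in 42, both were seen in 19 and neither in 6. These 4 classes were drawn after the values were seen. The cells with type I collagen and no Rgs5 were deeper, with a median of 26816 UMIs against 9559 for the cells with Rgs5 alone, so depth and class move together here. At least 2 of 7 pericyte markers (Rgs5, Kcnj8, Abcc9, Cspg4, Notch3, Higd1b and Ndufa4l2) were seen in 68 cells, and at least 2 of 8 fibroblast or stellate markers (Pdgfra, Dcn, Lum, Dpt, Col14a1, Pi16, Gsn and Clec3b) in 44. Both held for 30 cells and neither for 12.

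The balance also moved between replicates. Type I collagen without Rgs5 was found in 18 of 25 cells with NMMA in replicate 2, but in 5 of 12 in replicate 1. Rgs5 ran at 567, 271, 579 and 28.9 CPM in untreated replicates 1 and 2 and NMMA replicates 1 and 2, at 47.5 CPM in cytokines replicate 2 and at 331 and 11.8 CPM in cytokines with NMMA. The lowest cytokine-free library was thus below 2 of the 3 libraries with cytokines. Cell cycle genes (at least 2 of Mki67, Top2a, Cdk1, Birc5 and Ccnb1) were found in 8 cells, all of replicate 2 and 6 of them with NMMA.

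A Schwann cell marker (Sox10 or Cdh19) was present in 9 of the 94 cells, all in replicate 2. Schwann cells are the glia that ensheath islet nerves. All 9 had Sox10 and none had a UMI of Pdgfrb, against 90.6% of the other 85 cells. Col1a2 was found in 100% of them. The data go against the label mesenchymal for these 9 cells, and results without them are given below for some genes and comparisons.

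Markers of most other islet cells were low, but the sum of the Schwann list was not. The 8 Schwann genes summed to 806 to 1054 CPM without cytokines and 240 to 1780 CPM with them. The other kept barcodes had 28.9 CPM or less of these genes. The sum did not follow the Schwann marker cells. Replicate 1 had none of them, yet its sums were 838 CPM untreated and 806 CPM with NMMA. Cryab, seen in 100% of the 9 Schwann marker cells, was also seen in 64.7% of the other 85 members. It was at 753 to 889 CPM in the libraries without cytokines, scaled by total UMIs. The 12 endocrine genes summed to 4431 to 4638 CPM in libraries without cytokines and 1523 to 3985 CPM with them, against 338042 CPM or more in the other kept barcodes. Of 10 endothelial genes, Cdh5 (by the rule), Emcn and Tie1 were at 0, and the sum was 65.2 to 232 CPM. Of 12 macrophage and leukocyte genes, Tyrobp (by the rule), Ptprc, C1qc, Ctss and Cd3e were at 0, and the sum was 14.0 CPM or less. Acinar genes summed to 84.5 CPM or less. Ins2 in the mesenchymal sums was 0.323% to 1.07% of its level in insulin-led cells, both scaled by total UMIs. All 8 ductal genes were detected, but their sum (890.7 to 4004 CPM without cytokines, 24.8 to 83.1 CPM with them) was mostly Spp1. Ductal genes summed to 937 to 2290 CPM in the other kept barcodes, so this list was not low without cytokines. The part of these other cells in the results was not tested.

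Beyond the rule, the genes that set the members apart from all other kept barcodes were matrix, cytoskeletal and secreted genes. They are ranked by the ratio of mesenchymal CPM to that of the other kept barcodes in the 4 cytokine-free libraries, with 10 CPM added to both and CPM scaled by total UMIs alone, which is a description and no test. Timp1, an inhibitor of matrix metalloproteinases, led with a ratio of 116 and 834 to 3514 CPM. Il11, a cytokine of the IL-6 family, followed at 95.9. Its range of 186 to 2759 CPM was wide. Col5a2 had a ratio of 64.9 and the intermediate filament gene Vim 51.7. Vim was not particular to these cells, since endothelial sums held 718 to 1079 CPM, against 3055 to 4723 CPM in the mesenchymal sums. Serpinh1, named below, was at 200 to 301 CPM in endothelial sums. Col5a2 was at 5.04 CPM or less there and Inhba, also named below, at 2.88 CPM or less. The pericyte marker Ndufa4l2 came at 54.1, the collagen chaperone Serpinh1 at 46.1, the TGF-β family ligand subunit Inhba at 43.8 and the smooth muscle actin gene Acta2 at 38.8. Mgp (matrix Gla protein), an inhibitor of calcification, was the most abundant of the leading genes at 4343 to 24698 CPM.

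The question of what cytokines did to these cells was addressed first by averaging the cytokine effect over both inhibitor states. This set the 3 libraries with cytokines against the 4 without. The mix of Rgs5-positive, type I collagen and Schwann marker cells differed between libraries, and its part in the calls was not tested. Several chemokines, most of the interferon-induced GTPases and antigen presentation genes tested, and Nos2 rose with cytokines, and 7 genes fell, among them Spp1 and Acta2. Of 4578 genes tested, 75 were higher (1.64% of genes tested) and 7 lower (0.153%) at an adjusted p under 0.05 (edgeR's quasi-likelihood test), or 1.79% in all. At an unadjusted p under 0.05 there were 387 genes (8.45%). This main fit left out the pairing of same-numbered libraries by pool of mice. With the replicate as a block, 139 were higher and 44 lower, and all 82 genes were called again. Other tools kept fewer of the 82, with 69 called by DESeq2 and 60 by limma's voom method. Leaving out untreated replicate 2 gave 42 higher and 4 lower, and leaving out untreated replicate 1 gave 49 and 3. Leaving out cytokines with NMMA replicate 1 or 2 gave 162 and 158 genes. Of the 82 genes, 37 were called in all 6 fits that left out 1 library. Without the Schwann marker cells, 71 were higher and 8 lower.

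Among the chemokines, 5 of 12 tested rose. Cxcl9, a ligand of CXCR3, a chemokine receptor on T cells, was at 0, 0, 0 and 1.81 CPM in the 4 libraries without cytokines. It stood at 4628 CPM in cytokines replicate 2 and at 13138 and 8816 CPM in cytokines with NMMA, and at 3522 CPM in the single cell of cytokines replicate 1. Only 1 UMI was counted without cytokines, so the ratio of 10389 has a counting interval of 1863 to 410443 (log2 change 12.82 ± 0.65, SE, adjusted p = 4.81e-05 by edgeR). Its neighbour on chromosome 5, Cxcl10 (5:92346638-92348889, with Cxcl9 at 5:92321347-92328079, GRCm38), binds the same receptor and rose from 0 to 41.6 CPM to 4403, 11923 and 4888 CPM. Its log2 change was 8.09 ± 0.93 (SE, adjusted p = 0.00708, edgeR), and the call was lost without either cytokines with NMMA library.

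Cxcl5, which attracts neutrophils through CXCR2, was even across the libraries with cytokines. It ran from 3.18 to 65.1 CPM without cytokines, and reached 7719 CPM with cytokines and 6532 and 6227 CPM with cytokines and NMMA. The ranges did not overlap, as for 6.57% of all genes on the higher side and 4.57% on the lower side. The log2 change was 8.17 ± 0.63 (SE, adjusted p = 0.000259, edgeR). Ccl5, which attracts T cells and monocytes, rose from 3.18 CPM or less to 504, 1546 and 219 CPM (adjusted p = 0.00927, edgeR). The Ccl5 call was lost in 1 of 6 fits with a library left out and with limma voom (adjusted p = 0.438). The single cell of cytokines replicate 1 had no Ccl5. Cxcl16 rose from 32.6 to 78.0 CPM to 386 to 521 CPM (adjusted p = 0.00201, edgeR).

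Other chemokines were already present without cytokines. Ccl2, which attracts monocytes, was at 136 and 1350 CPM in untreated islets and at 1664 and 88.6 CPM with NMMA. It was at 902 CPM with cytokines and at 4903 and 5486 CPM with cytokines and NMMA. The groups overlapped, and the log2 difference of 1.43 ± 1.21 did not pass the test (adjusted p = 0.903, edgeR). Cxcl1 had 4.68 to 273 CPM without cytokines and 1145 to 4928 CPM with them. Its ranges did not overlap, but its adjusted p was 0.180. Cxcl1 was called in 2 of the 6 fits with a library left out. It was also called with DESeq2, with no low-count filter, with hormone genes under 1% of UMIs and with at least 2000 UMIs. None of the 12 chemokine genes was called lower, and they had a median log2 change of 3.46, against -0.02 over all genes tested.

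The immunity-related GTPases, which act against intracellular microbes and are induced by interferons, moved as a group. Of 14 genes tested in the list of guanylate binding proteins and related GTPases, 11 rose and none fell. The median log2 change was 6.71, or 5.39 when the 5 genes at 0 without cytokines were set to their lower bound. Iigp1 rose from 3.18 to 14.0 CPM to 2789, 2241 and 2790 CPM (log2 change 8.09 ± 0.50, SE, adjusted p = 4.81e-05, edgeR). Igtp rose from 6.37 CPM or less to 516 to 868 CPM, and Gbp2 from 6.37 to 26.0 CPM to 1311 to 2894 CPM. Gbp4 had no UMI without cytokines and 230 UMIs with them, which was at least 207-fold higher, where 3 counts over the group stand for 0. Gbp8, Gbp9 and Tgtp2 were the tested members that missed the threshold, at adjusted p of 0.476, 0.112 and 0.180. Of the 11, Gbp5, Gbp6 and Irgm2 were not called with limma voom (adjusted p = 0.0554, 0.234 and 0.0677), and the rest were. The Gbp6 call was also lost with DESeq2.

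**Figure D2:**
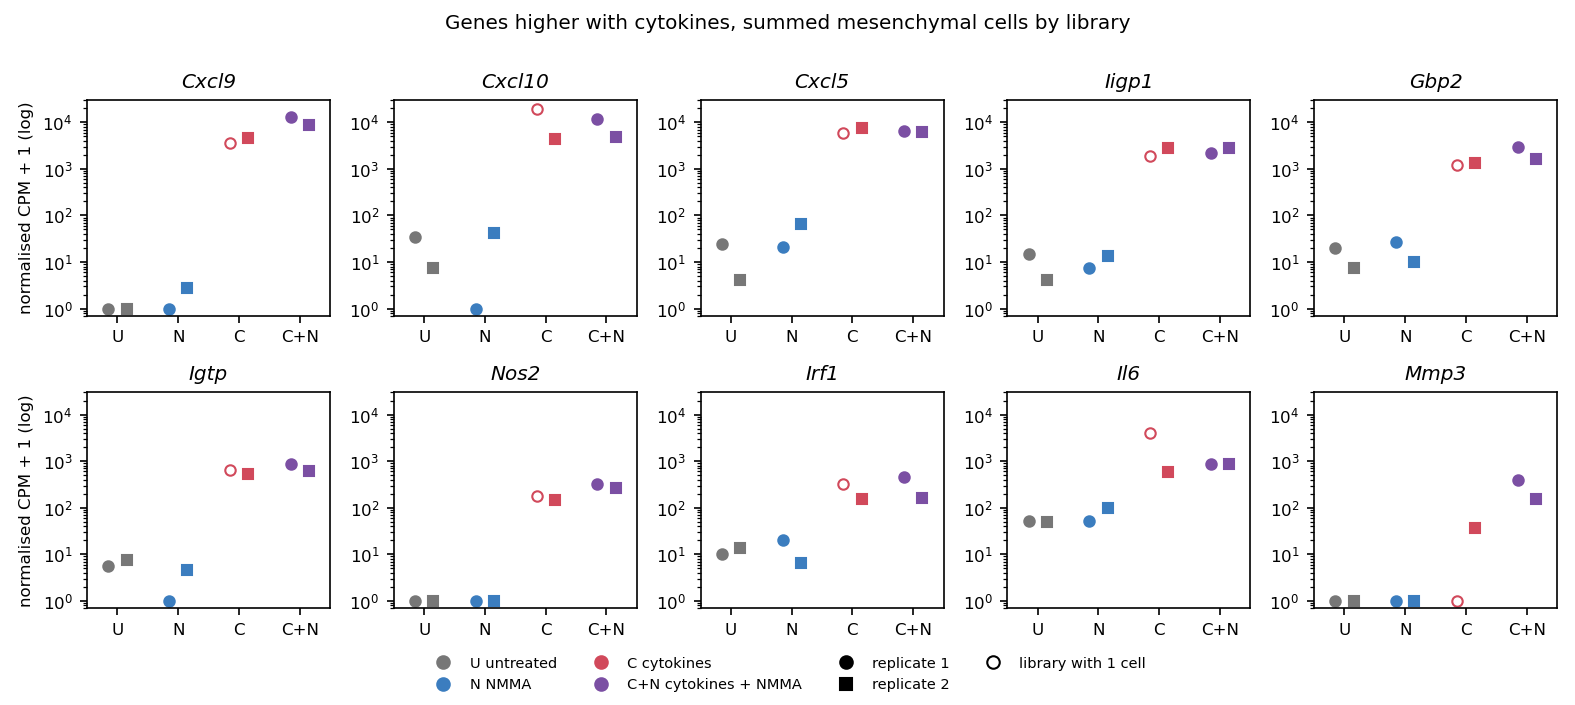
Normalised CPM plus 1 on a log axis for 10 genes, by library (circles replicate 1, squares replicate 2, open circle the library with 1 cell). In each panel the 3 libraries with cytokines that entered the fits lay above all 4 without, for example Nos2 at 142 to 322 CPM against 0.

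Interferon signalling genes gave fewer calls. Irf1, an interferon-induced transcription factor, was at 5.43 to 19.5 CPM without cytokines and at 154, 463 and 160 CPM with them. It rose by 4.33 ± 0.57 and Socs1, a feedback inhibitor of JAK kinases, by 4.26 ± 0.56 (log2, SE, adjusted p = 0.0042 and 0.00428, edgeR). The receptor genes Ifngr1 and Ifngr2 were expressed throughout, at 28.7 to 71.5 and 97.7 to 183 CPM without cytokines, and did not pass the test (adjusted p = 0.994 and 0.951). In the list of 15 tested signalling genes, 4 rose, and in the list of 19 antiviral genes 9 rose, among them Isg15 (log2 change 2.31), Bst2 (2.70) and Ifit1 (4.46). The Isg15 call was lost without untreated replicate 1 and the Bst2 call without untreated replicate 2.

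Promoter sequences of 4 of these genes are shown because interferon-driven factors bind short motifs near gene starts. They are the called genes of the interferon lists with the smallest adjusted p and 1 entry in the RefSeq table (GRCm38.p6), each from 250 bases before to 50 bases after the start, 5′ to 3′. Capitals mark matches on either strand to GAS (TTCNNNGAA, the gamma-activated site) and ISRE (GAAANNGAAA, the site class of IRF factors and ISGF3), which can overlap. The Isg15 window was chr4:156200769-156201068 on the minus strand. The Socs1 window was chr16:10785487-10785786 on the minus strand. The Bst2 window was chr8:71537423-71537722 on the minus strand. The Ifit1 window was chr19:34640639-34640938 on the plus strand.
Isg15: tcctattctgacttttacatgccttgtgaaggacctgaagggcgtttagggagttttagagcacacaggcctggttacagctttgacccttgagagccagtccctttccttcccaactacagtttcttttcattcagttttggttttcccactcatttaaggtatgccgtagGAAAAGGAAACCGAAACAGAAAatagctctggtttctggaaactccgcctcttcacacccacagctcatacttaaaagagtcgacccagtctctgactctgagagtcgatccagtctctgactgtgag
Socs1: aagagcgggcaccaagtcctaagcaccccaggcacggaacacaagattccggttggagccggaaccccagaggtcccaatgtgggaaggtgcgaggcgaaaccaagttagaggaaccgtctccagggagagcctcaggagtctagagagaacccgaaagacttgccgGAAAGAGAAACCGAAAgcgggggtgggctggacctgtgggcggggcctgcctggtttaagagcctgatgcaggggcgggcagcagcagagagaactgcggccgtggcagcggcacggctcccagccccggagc
Bst2: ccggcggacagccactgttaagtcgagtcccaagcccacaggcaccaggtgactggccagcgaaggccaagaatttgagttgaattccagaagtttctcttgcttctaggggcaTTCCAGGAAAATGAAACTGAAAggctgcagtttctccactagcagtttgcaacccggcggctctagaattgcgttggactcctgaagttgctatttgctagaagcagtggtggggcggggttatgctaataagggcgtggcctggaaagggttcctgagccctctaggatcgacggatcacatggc
Ifit1: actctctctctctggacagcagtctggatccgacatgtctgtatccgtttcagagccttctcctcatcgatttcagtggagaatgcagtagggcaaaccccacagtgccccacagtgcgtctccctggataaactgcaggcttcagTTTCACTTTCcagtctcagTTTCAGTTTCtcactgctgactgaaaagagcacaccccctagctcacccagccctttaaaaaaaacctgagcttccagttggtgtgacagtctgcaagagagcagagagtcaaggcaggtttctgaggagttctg
Isg15 held 3 overlapping ISRE matches that began 78, 72 and 66 bases before the start, and Socs1 held 2 at 83 and 77 bases. Bst2 had a GAS match at 136 bases that ran into ISRE matches at 130 and 124 bases. Ifit1 had 2 separate ISRE matches at 104 and 85 bases. Among all 27025 genes of the table, 9.55% had a GAS match and 3.99% an ISRE match in this window. Of the 75 genes that rose, 55 were in the table, and 11 of these had a GAS match and 23 an ISRE match (41.8%). These are letter matches, and no binding was measured.

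Most antigen presentation genes, which were already expressed without cytokines, rose. Of 17 genes tested, 14 rose and none fell, with a median log2 change of 2.60. H2-Q7, H2-T22, H2-T23, Tap1, Psmb8, Psmb9 and Psme1 were called in all 6 fits with a library left out. H2-Q4, Psmb10, Psme2 and Tapbp were called in 4 of these fits, and H2-K1 and Tap2 in 2. B2m, the light chain of class I molecules, was at 487 to 884 CPM without cytokines and at 2559 to 3845 CPM with them (log2 change 2.31 ± 0.35, SE, adjusted p = 0.00708, edgeR), and the call was lost without untreated replicate 1, untreated replicate 2 or NMMA replicate 2. Tap1, a peptide transporter, rose from 4.68 to 9.04 CPM to 237, 471 and 231 CPM. The immunoproteasome subunit Psmb8 rose from 65.0 to 90.4 CPM to 665 to 1315 CPM, and Psmb9 rose by 5.33 ± 0.60 (log2, SE, adjusted p = 0.00157, edgeR). The single cell of cytokines replicate 1 held 2839 CPM of B2m and 467 CPM of Tap1.

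Nos2, which encodes inducible nitric oxide synthase, had no UMI in the 73 mesenchymal cells without cytokines. It was at 142 CPM with cytokines and at 322 and 267 CPM with cytokines and NMMA, at least 97.0-fold higher (adjusted p = 0.000469, edgeR). The call held in all 6 fits with a library left out and was lost without the Schwann marker cells (adjusted p = 0.243, edgeR). The single cell of cytokines replicate 1 had 180 CPM. Nos2 in the mesenchymal sums was 50.01% to 89.7% of its level in insulin-led cells of the same libraries, while Ins2 was at 0.323% to 0.922% there. Of the other 7 genes of nitric oxide synthesis and signalling tested, none passed, including the arginine transporter Slc7a2 (adjusted p = 0.834) and Gch1, which makes the cofactor of nitric oxide synthases (adjusted p = 0.401).

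Genes of the IL-1 and NF-κB pathway gave 3 calls of 14. Sod2, the mitochondrial superoxide dismutase, rose from 123 to 206 CPM to 1454 to 2886 CPM (log2 change 3.38 ± 0.36, SE, adjusted p = 0.000798, edgeR). Tnfaip2 and Zc3h12a were the others. Zc3h12a was called in 1 of the 6 fits with a library left out and not without the Schwann marker cells. The Zc3h12a call was also lost with total UMI scaling, DESeq2 and limma voom. Il1r1, the signalling receptor of IL-1, was at 108 and 76.4 CPM in untreated islets and 124 and 47.0 CPM with NMMA, against 5.93 CPM with cytokines and 16.5 and 23.7 CPM with cytokines and NMMA. Its adjusted p was 0.0695, and 0.0163 with the replicate block, while the single cell of cytokines replicate 1 had 180 CPM. Il1r1 was called lower without the Schwann marker cells and in 3 of the 6 fits with a library left out. No UMI of Il1rn was counted in any library.

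Among secreted factors, Il6 was the only call of 14. It was expressed at 47.8 to 95.9 CPM without cytokines and rose to 587, 852 and 859 CPM (log2 change 3.51 ± 0.34, SE, adjusted p = 0.000437, edgeR). All 6 fits with a library left out called it. Icam1 and Cd274, an adhesion molecule and the checkpoint ligand PD-L1, rose by 5.23 ± 0.91 and 5.18 ± 0.93 (log2, SE, adjusted p = 0.0308 and 0.0193, edgeR). Icam1 was called in 3 of the 6 fits with a library left out and Cd274 in 2, and Cd274 was not called without the Schwann marker cells. Neither was called with limma voom (adjusted p = 0.294 and 0.252). Vcam1 did not pass (adjusted p = 0.538). The complement protease C1s1 rose (adjusted p = 0.0181, edgeR, called in 3 of the 6 fits with a library left out) and C3 did not pass (adjusted p = 0.958). The C1s1 call was lost with limma voom (adjusted p = 0.121). Lcn2 was too low to be tested, at 4.68 CPM or less without cytokines and 11.9 to 41.3 CPM with them.

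The stress genes that respond to heat or unfolded protein did not pass the test. Hspa1a was at 9.04 to 97.5 CPM without cytokines and at 41.5, 207 and 0 CPM with them (adjusted p = 0.994, edgeR), Hspa1b, Hsph1 and Dnajb1 had adjusted p of 0.994, 0.964 and 0.992, and Ddit3 was too low to be tested. Hmox1, heme oxygenase 1, ranged from 35.0 to 566 CPM without cytokines and from 332 to 546 CPM with them (adjusted p = 0.922). Mt2, a metallothionein, was the 1 stress gene of 19 that rose, from 52.0 to 201 CPM to 444 to 973 CPM (adjusted p = 0.0099, edgeR, lost without either untreated library).

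The genes that fell were led by Spp1. Spp1 (osteopontin), a secreted matrix protein and cytokine, was at 3180 and 2337 CPM in untreated islets and at 865 and 3965 CPM with NMMA. It was at 59.3 CPM with cytokines, at 16.5 and 59.2 CPM with cytokines and NMMA, and at 35.9 CPM in the single cell. All 4 libraries without cytokines were above all those with them, with a log2 change of -5.72 ± 0.83 (SE, adjusted p = 0.0103, edgeR). The call was lost without either library of cytokines with NMMA. Spp1 had a UMI in 45 of 73 cells without cytokines and in 10 of 21 with them. With every cell thinned to 1000 UMIs it was seen in 35.6% (95% exact interval 24.7 to 47.7) and 4.76% (0.120 to 23.8). These intervals cover counting error over pooled cells and not the spread between libraries. Thinned shares in the 4 libraries without cytokines ran from 8.33% to 68.8%. They were 12.5% in cytokines replicate 2 and 0% in each library of cytokines with NMMA, so the shares overlapped. At full depth 4 of 5 cells in cytokines with NMMA replicate 2 had a UMI of Spp1.

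Acta2, smooth muscle actin, was at 688, 688, 527 and 452 CPM without cytokines, at 94.9 CPM with cytokines and at 364 and 385 CPM with cytokines and NMMA. Its log2 change was -1.62 ± 0.33 (SE, adjusted p = 0.0397, edgeR), and it was called in 2 of the 6 fits with a library left out and not without the Schwann marker cells. Piezo2, a mechanosensitive channel, fell by 4.05 on the log2 scale, Cthrc1, a collagen triple helix repeat protein, by 3.62, the nucleoside transporter Slc29a1 by 3.43 and the thrombin receptor F2r by 2.92 (adjusted p = 0.0223, 0.0241, 0.0264 and 0.0228, edgeR). None of these 4 was called by limma's voom method. Btc, an EGF receptor ligand, fell by 3.93 (adjusted p = 0.0472, edgeR). The Btc call was lost without the Schwann marker cells, with hormone genes under 1% of UMIs and with limma voom (adjusted p = 0.860). It held in 3 of the 6 fits with a library left out. The 3 libraries with cytokines had 154, 0 and 0 CPM of Btc against 81.4 to 182 CPM without.

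**Figure D3:**
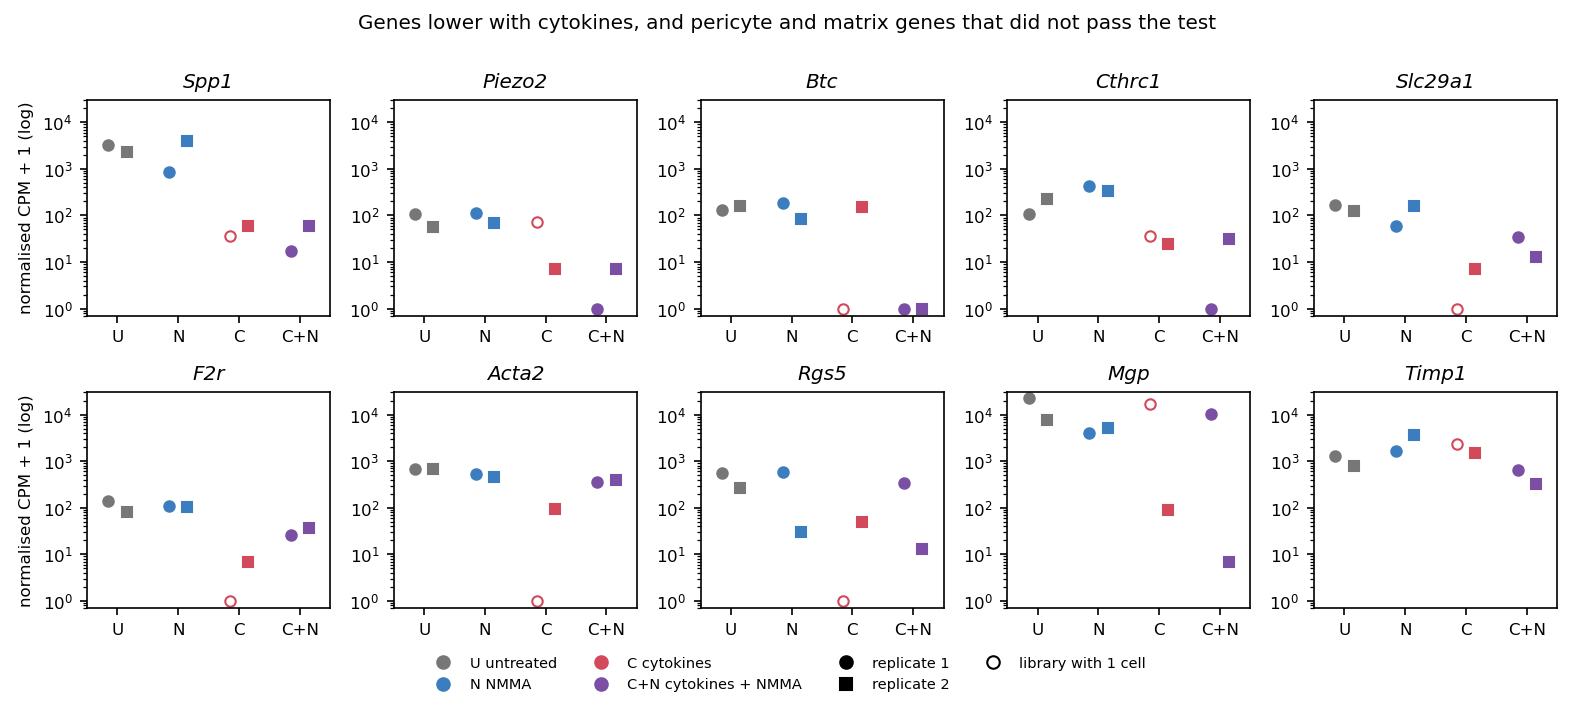
Normalised CPM plus 1 on a log axis for the 7 genes that fell and for Rgs5, Mgp and Timp1, which did not pass the test, by library (circles replicate 1, squares replicate 2, open circle the library with 1 cell). Spp1 was at 865 CPM or more in the 4 libraries without cytokines and at 59.3 CPM or less in those with them, while Mgp ranged from 5.92 to 10327 CPM among the 3 libraries with cytokines in the fits.

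Of the pericyte, contractile, fibroblast and collagen lists, Acta2 was the only call. The 10 pericyte markers had a median log2 difference of -1.97, the 9 contractile genes -1.25, the 9 fibroblast and stellate markers -1.21 and the 12 collagens outside the rule -0.84, each with no gene above 0 except 2 of the fibroblast markers. These medians are descriptions, and 0 of 10, 1 of 9, 0 of 9 and 0 of 12 genes passed. Mgp was at 23144, 7783, 4057 and 5073 CPM without cytokines, at 89.0 CPM with cytokines and at 10327 and 5.92 CPM with cytokines and NMMA (adjusted p = 0.827). The 2 libraries of 1 condition thus differed more than the groups. Dcn (decorin) had an adjusted p of 0.844, and 0.00648 with the replicate block, with a log2 change of 1.53 ± 0.99 without it. Pdgfra was at 74.2 CPM or less in every library (adjusted p = 0.848).

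Matrix metalloproteinases and their inhibitors gave 1 call of 12. Mmp3, stromelysin 1, had no UMI without cytokines and was at 35.6, 389 and 154 CPM with them, at least 70.9-fold higher (adjusted p = 0.0107, edgeR). It was seen in 5 of 21 cells with cytokines, and the 389 CPM came from 1 of 7 cells. The call was lost with DESeq2 and with limma voom (adjusted p = 0.209). Timp1 was at 1269, 770, 1638 and 3657 CPM without cytokines and at 1466, 653 and 326 CPM with them (log2 change -0.96 ± 0.45, adjusted p = 0.632). The TGF-β pathway (15 genes), collagen folding and crosslinking (19), growth factor receptors (8), cell cycle (11) and ribosomal protein lists (20) had no call. The cell cycle median was -2.85, or -2.03 with 1 gene at its lower bound, and all cells with 2 such genes came from replicate 2.

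**Figure D4:**
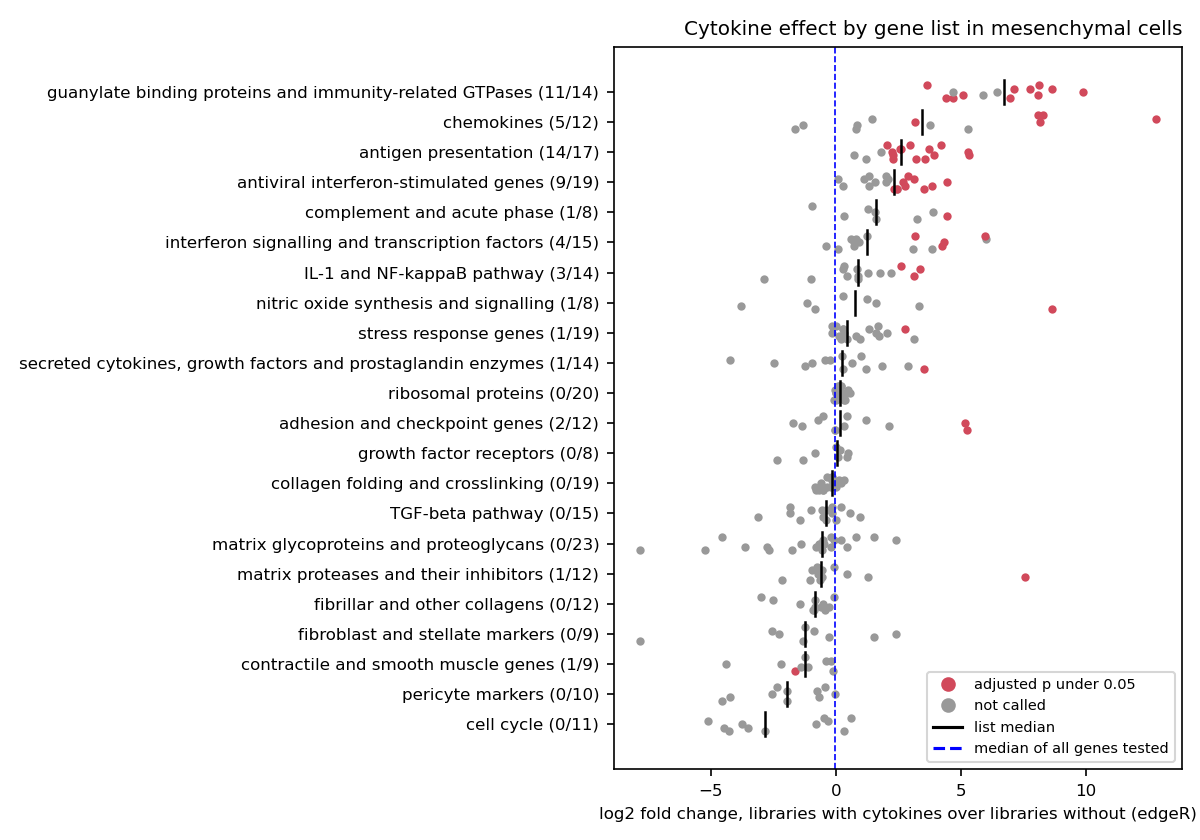
Log2 fold change with cytokines, averaged over both inhibitor states (x axis), for the tested genes of each list (y axis, with called and tested genes in brackets). Red points passed an adjusted p of 0.05, the black bar is the list median and the dashed line the median of all 4578 genes. The GTPase, chemokine and antigen presentation lists lay to the right, at medians of 6.71, 3.46 and 2.60.

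Induced genes differed in how many cells carried them. With all UMIs, Gbp2 was found in 21 of 21 cells with cytokines, Iigp1 and Igtp in 20, Cxcl9 in 18 and Cxcl5 in 16, but Ccl5 in 8 and Mmp3 in 5. Of the 73 cells without cytokines, which were shallower, Gbp2 was in 10, Iigp1 and Cxcl5 in 8, Igtp in 5, Ccl5 in 2, Cxcl9 in 1 and Mmp3 in none. After thinning to 1000 UMIs per cell, Cxcl9 was in 76.2% of 21 cells (95% exact interval 52.8 to 91.8) and in 0 of 73 cells without cytokines, which allows a share of up to 4.11%. Cxcl5 was in 71.4% (47.8 to 88.7) and 1.37% (0.0347 to 7.40). All intervals and bounds in this paragraph pool cells over libraries, so they cover counting error and not the spread between libraries. Thinned Cxcl5 was in 75.0% of cells in cytokines replicate 2. In cytokines with NMMA it was in 42.9% of cells in replicate 1 and 100% in replicate 2. Igtp was in 28.6% (11.3 to 52.2) and in 0 of 73 cells. Il6 was in 42.9% (21.8 to 66.0) and 4.11% (0.856 to 11.5). Insulin-led cells with cytokines, at a median of 25899 UMIs, held a UMI of Cxcl5 in 2.59% and of Il6 in 0.614%.

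Nos2 was thinner. It had a UMI in 10 of 21 cells (47.6%, 25.7 to 70.2) at full depth and in 3 of 21 after thinning. Insulin-led cells with cytokines had 62.1% at full depth. The interval again covers counting error over pooled cells only. At full depth the share was 37.5% in cytokines replicate 2, and 57.1% and 40.0% in cytokines with NMMA.

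Cytokines alone were compared with untreated islets, with 1 library against 2. Here 25 genes were higher (0.546% of genes tested) and none lower, among them Cxcl5 (log2 change 9.26), Iigp1 (8.38), Gbp2 (6.74), Igtp (6.39) and Ifit1 (6.26). Cxcl9 and Nos2, which had no UMI in untreated islets, were also called (adjusted p = 0.0013 and 0.0158, edgeR). At an unadjusted p under 0.05 there were 274 genes (5.99%), and DESeq2 called 4 lower. With the replicate block, 83 were higher and 12 lower. The count fell to 2 without untreated replicate 1 and to 0 without untreated replicate 2, and rose to 87 and 97 without a library of cytokines with NMMA. Spp1 (adjusted p = 0.145) and Acta2 (0.0659) were not called here.

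With nitric oxide synthase inhibited, cytokines with NMMA were compared with NMMA alone, with 2 libraries against 2. There were 43 genes higher (0.939% of genes tested) and 3 lower (0.0655%), the latter being Spp1, Btc and Cthrc1. Among the genes higher, Cxcl2, Gbp4, Nos2 and Mmp3 had no UMI with NMMA alone, so no fold is given for them here, and Iigp1 (log2 change 7.80), Gbp2 (7.23) and Cxcl5 (7.09) had UMIs in both groups. At an unadjusted p under 0.05 there were 302 genes (6.6%), and the 46 calls were 1% of genes tested. The counts were 93 and 28 with the replicate block, and between 19 and 116 in all with 1 library left out, the lowest without NMMA replicate 2. Without the Schwann marker cells 42 genes were called, 37 of them among the 46. The comparisons without and with NMMA share no library. They had 20 genes higher in common, which was 80.0% of the 25 and 46.5% of the 43, including Cxcl9, Cxcl5, Il6, Nos2, Tap1 and Iigp1. Against untreated islets, cytokines with NMMA gave 52 genes higher (1.14%) and 3 lower (0.0655%), 1.2% in all, with 311 (6.79%) at an unadjusted p under 0.05.

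The part of nitric oxide was addressed by comparing cytokines with cytokines and NMMA, 1 library of 8 cells against 2 of 7 and 5 cells. A single gene was called, Cxcl2 (0.0218% of genes tested), a neutrophil chemokine. It had no UMI with cytokines in replicate 2 or in the single cell of replicate 1, and stood at 876 and 717 CPM with cytokines and NMMA, so it was at least 44.0-fold lower without the inhibitor (adjusted p = 0.0494, edgeR). The call was lost with limma voom, with DESeq2, without the Schwann marker cells and without either untreated library. At an unadjusted p under 0.05 there were 129 genes (2.82%). With the replicate block 5 were higher and 5 lower, and leaving out a library gave 0 to 18 genes.

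For the other induced genes the difference between cytokines and cytokines with NMMA did not pass the test. The log2 difference, cytokines over cytokines with NMMA, was 0.28 ± 0.75 for Cxcl5, 0.15 ± 0.58 for Iigp1, -0.80 ± 0.66 for Gbp2, -1.04 ± 0.58 for Nos2 and -1.97 ± 0.54 for Acta2 (SE, adjusted p of 1 for each, edgeR). Differences of these sizes were not detectable with these cells, which does not show that the levels were equal.

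NMMA alone against untreated islets gave 0 genes in edgeR (0 of 4578), 0 in DESeq2 and 0 in limma voom, with 35 (0.765%), 16 and 133 at an unadjusted p under 0.05. With the replicate block there was 1 gene higher and 1 lower, S100a8 and Cck, which are named because they were the only calls. Cck had 173 and 134 CPM in untreated islets and 0 and 5.43 CPM with NMMA.

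The cytokine effect in mesenchymal cells was then set against that in endothelial cells (179 cells with at least 4 of 7 endothelial genes) of the same libraries. Genes of both rules were left out. Of 6198 genes tested, 9 differed (0.145%), 4 with a higher (0.0645%) and 5 with a lower (0.0807%) log2 effect in mesenchymal cells, and 416 (6.71%) at an unadjusted p under 0.05. CPM given for this comparison and the next are scaled by total UMIs alone, so mesenchymal values differ slightly from those above. Timp3, a matrix-bound protease inhibitor, was at 594 to 887 CPM in endothelial cells without cytokines and at 6026 to 6791 CPM with them, while mesenchymal cells had 90.4 to 496 and 53.8 to 321 CPM. The difference of the log2 effects was -4.42 ± 0.48 (SE, adjusted p = 0.000113, edgeR). Wars, a tryptophanyl-tRNA synthetase, also rose more in endothelial cells. Pfkfb3, a regulator of glycolysis, rose there from 28.2 to 49.0 CPM to 453 to 999.7 CPM. In mesenchymal cells it was low, at 6.90 to 27.8 CPM without cytokines and 8.43 CPM or less with them. Tnfaip2 went the other way, from 40.0 to 74.7 CPM to 253 to 380 CPM in mesenchymal cells and from 173 to 196 CPM to 71.6 to 184 CPM in endothelial cells (difference 2.71 ± 0.47, SE, adjusted p = 0.0222, edgeR). The count was 1 and 2 without untreated replicate 1 and 2, and 83 without cytokines with NMMA replicate 1.

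Against insulin-led cells (6953 cells with insulin above 5% of UMIs), 117 of 13563 genes differed (0.863%), 34 with a higher (0.251%) and 83 with a lower (0.612%) effect in mesenchymal cells, and 876 (6.46%) at an unadjusted p under 0.05. Limma voom called 21, so the count depends on the tool. The edgeR fit used the same estimate of spread per gene for both cell types. The spread of the small mesenchymal sums was thus not estimated on its own, and the very small edgeR p-values below do not measure it. Within mesenchymal cells the Spp1 call was lost without either library of cytokines with NMMA. Spp1, Cxcl5 and Ccl2 were called by both. Spp1 fell in mesenchymal cells but was at 38.2 to 136 CPM without and 128 to 235 CPM with cytokines in insulin-led cells (difference -7.02 ± 0.53, SE, adjusted p = 2.19e-36 with edgeR and 0.00146 with limma voom). Cxcl5 stayed at 2.48 CPM or less in insulin-led cells in both states, and rose in mesenchymal cells (difference 8.50 ± 0.66, SE, adjusted p = 1.43e-24 with edgeR and 0.0174 with limma voom). In endothelial cells it was at 1117 CPM in cytokines with NMMA of replicate 2 and at 6.66 CPM or less in the other 6 libraries of the fits. Ccl2 was at 0.344 CPM or less in insulin-led cells without cytokines and 65.4 to 308 CPM with them, and already at 85.2 to 1782 CPM in mesenchymal cells without cytokines.

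**Figure D5:**
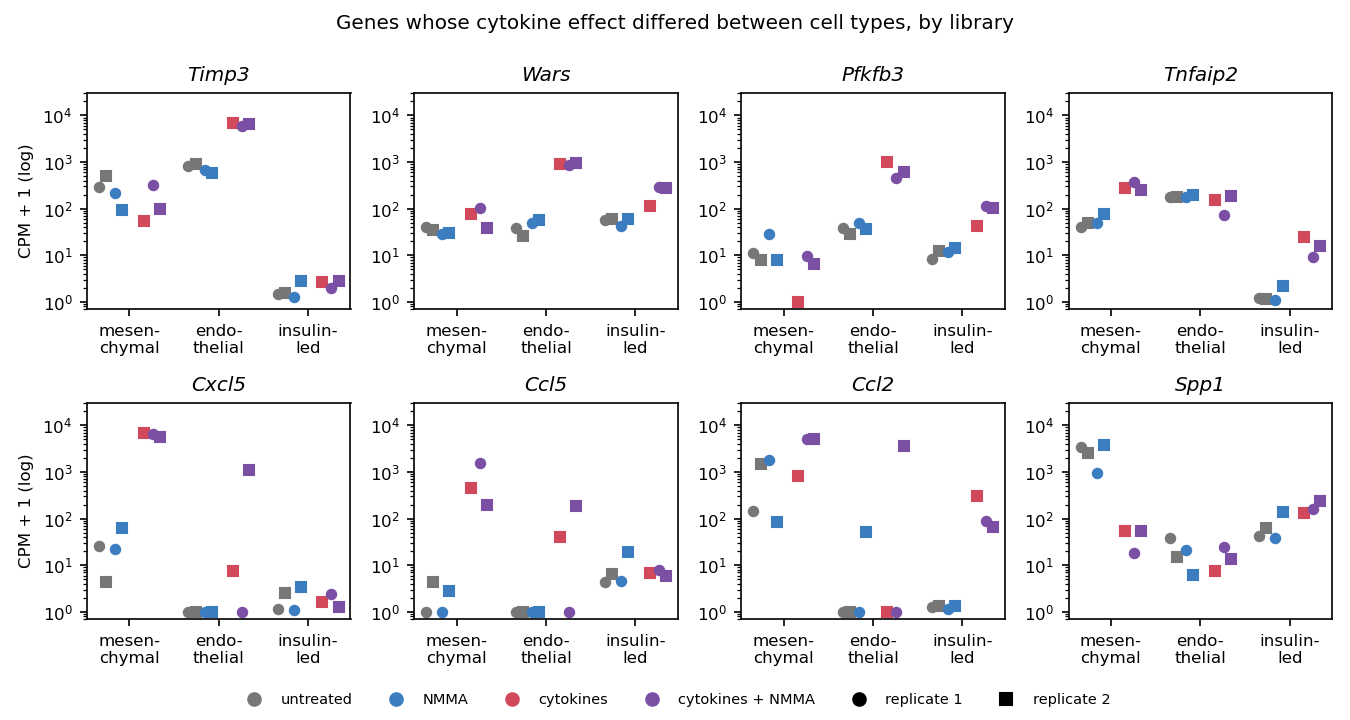
CPM (scaled by total UMIs) plus 1 on a log axis in mesenchymal, endothelial and insulin-led sums of the 7 libraries in the fits (x axis, cell type; circles replicate 1, squares replicate 2), for 8 genes whose cytokine effect differed. Timp3 rose in endothelial cells to 6026 CPM or more, Cxcl5 rose in mesenchymal cells in all 3 libraries with cytokines, and Spp1 fell in mesenchymal cells.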

How the data were processed

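Single-cell suspensions of islets from 8 libraries were sequenced from the 3′ end (the labels name the v2 chemistry and the methods v3). UMI counts per gene and barcode were deposited by the authors, made on mm10 with Cell Ranger 3.0.0 (31053 genes listed, replicate 1) and 6.0.0 (32285 genes, replicate 2), per the file headers and processing notes. Only the 30406 gene IDs that both versions list entered. The counts of member cells were summed by library and tested with edgeR 4.0.16 (glmQLFit, robust, TMM, filterByExpr, Benjamini-Hochberg adjustment over all genes tested, threshold 0.05). Rule and mitochondrial genes stayed in the library sizes but were not tested. A library needed 5 cells to enter, so 7 libraries with 93 cells were fitted, at 118554 to 575376 UMIs each. Differences between cell types were tested with the library as a block and an estimate of spread per gene that both cell types shared. DESeq2 1.42.0 and limma 3.58.1 (voomLmFit) were alternatives, with R 4.3.3 and Python 3.11.15. The scripts were tested on simulated data.

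The members, gene lists and tests were chosen with earlier results of these data known. Named genes were those of the rule, up to 6 per list by adjusted p, a set of key genes, markers of cell types, up to 10 called increases and 10 decreases per contrast that went the same way in each replicate, and for each cell type difference the 8 genes with the lowest adjusted p. For cytokines alone, replicate 2 by itself gave the direction. Genes named outside this rule (Il11, Col5a2, Vim, Serpinh1, Inhba, Mgp, Cck and S100a8 among them) were chosen after their values were seen. Replicates each come from 1 pool of mice, so same-numbered libraries are paired. The main fits of the mesenchymal sums did not include this pairing, and only the fits with the replicate block did. A gene that did not pass in the main fits could thus pass with the block, as Il1r1 and Dcn did. The deviations of same-numbered libraries correlated across 4578 genes at r = 0.226, 0.306 and 0.384 for the 3 pairs of groups with both replicates. Positions are GENCODE M21 (GRCm38). Results for some genes are not reported here.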

Additional observations from a re-analysis of the deposited data

Results flagged for a closer look

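The effect of cytokines differed between mesenchymal and endothelial cells in 9 genes by edgeR's test of the difference itself. The difference of log2 effects, mesenchymal minus endothelial, was -4.42 for Timp3, -3.49 for Wars (tryptophanyl-tRNA synthetase), -7.07 for Pfkfb3, 2.71 for Tnfaip2, 1.999 for Plpp3, -8.05 for Areg, -5.003 for Ifi211 and 2.06 for Cyb5a, which are the 8 with the smallest adjusted p. Limma voom also called these except Ifi211 (adjusted p = 0.0622). Areg, an EGF receptor ligand, was at 33.0 to 940 CPM in mesenchymal cells without cytokines and 59.0 to 113 CPM with them, so its mesenchymal groups overlapped. Endothelial cells had 5.63 CPM or less and 0 to 197 CPM. Pfkfb3 was at 8.43 CPM or less in mesenchymal cells with cytokines. Ifi211 was at 4.78 CPM or less in endothelial cells without cytokines. With cytokines Ifi211 was at 53.8 to 186 CPM in mesenchymal and 99.97 to 154 CPM in endothelial cells. The differences for Areg, Pfkfb3 and Ifi211 thus rest on groups near 0, and their sizes are loosely set.

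Against insulin-led cells, the differences were -7.02 for Spp1, 8.84 for Ccl5, 8.50 for Cxcl5, -7.02 for Ccl2, -5.21 for Basp1, -8.57 for 9930111J21Rik2, -5.48 for Cd40 and -3.71 for Timp1. Limma voom called each of these 8, with adjusted p of 0.00146 to 0.0222. For Ccl2, Cd40 and 9930111J21Rik2 the negative sign comes with a steep rise in insulin-led cells, for example Cd40 from 1.27 CPM or less to 36.4 to 97.3 CPM, and not with a called fall in mesenchymal cells.

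The single mesenchymal cell of cytokines replicate 1 entered no fit. It held Cxcl10 at 19588.8 CPM, Cxcl9 at 3522.39 CPM and Gbp2 at 1222.05 CPM, each above the 4 libraries without cytokines.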

How the results depend on the processing

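Another scaling, hormone genes under 1% of UMIs and a minimum of 2000 UMIs kept each total count of calls within 1.5 times. Calls of single genes did change in these settings. Cxcl1 was gained with hormone genes under 1% and with at least 2000 UMIs. Btc was lost with hormone genes under 1%, and Zc3h12a with scaling by total UMIs. Scaling by total UMIs moved the median log2 change of all genes from -0.02 to -0.18 for the averaged effect, so list medians are best read against that median. The averaged cytokine effect gave 247 genes with no filter on low counts, 183 with the replicate block and 8 with cells thinned to 1000 UMIs, where 330 genes could be tested. Leaving out 1 library gave 46 to 162. Cytokines against untreated gave 121, 95 and 4 in the same order, 42 with every library that had a member, and 0 to 97 with a library left out. Cytokines with NMMA against NMMA gave 183, 121 and 7, and 19 to 116. Cytokines against cytokines with NMMA gave 15 without the filter, 10 with the block, 2 with at least 5 of 7 markers, and 0 with DESeq2, with thinned cells, without Schwann marker cells and with limma voom, and 0 to 18 with a library left out. NMMA against untreated gave 9 without the filter, 2 with the block, and 0 to 1. The difference from endothelial cells gave 62 without the filter, 15 with at least 5 markers, 5 thinned, 38 with every library, 14 with limma voom, and 1 to 83. The difference from insulin-led cells gave 15 thinned, 21 with limma voom, and 46 to 184. The causes were not tested. Without cytokines replicate 2, comparisons that use that group could not be estimated. The replicate block moved counts as stated above. The settings without Schwann marker cells, with every library and with limma voom were chosen after seeing the data. Few cells per library limit every comparison, and the cytokine group rests on 8 cells.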
